A study of Mus musculus with 18 samples.

Results

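Murine *Lipa* and the human *LIPA* transgene (hLIPA) were followed in the livers of mice lacking lysosomal acid lipase (LAL) and treated, or not, with a gene therapy vector. They are 2 of the 35441 genes quantified, and were chosen by name: every value of the rows *Lipa* and hLIPA in the deposited tables of estimated counts, TPM (length-corrected transcript abundance, each library having the same total) and mean transcript length was used, over all 18 livers. The livers came from male mice in 6 groups of 3. WT mice and untreated *Lipa*-/- mice, abbreviated KO, were compared with *Lipa*-/- mice injected with rAAV8.hAAT.LIPA (KOT, called treated here). Each group belongs to 12 or to 34 weeks post-injection, which the sample labels give as 3 and 8 months. The mutant line had been on a C57BL/6N background for several generations, and exon 4 of *Lipa* had been deleted in all tissues with a CMV promoter-driven Cre, so that every treated and untreated *Lipa*-/- liver carried the same deletion. The vector, given by tail vein to adult mice at the middle of the doses used in the study, carries a tagged human *LIPA* cDNA under the hepatocyte-specific human alpha-1-antitrypsin (hAAT) promoter. Between exons 3 and 5 the deleted allele, as drawn by the study, keeps a lacZ reporter cassette with a splice acceptor and a poly(A) signal. In the long experiment most of the untreated *Lipa*-/- mice had to be killed early at predefined endpoints. The study states that a single untreated *Lipa*-/- mouse was left by 34 weeks, while the untreated 34-week group holds 3 livers. Their age at collection is known here only from the labels, so that comparisons with untreated *Lipa*-/- livers at 34 weeks may not be matched for age. The *Lipa*-/- liver of mouse 5 at 12 weeks has a study code of its own, and the 12- and 34-week livers carry different study codes, so that time and study code cannot be told apart.

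LAL is the acid hydrolase that splits cholesteryl esters and triglycerides in the lysosome. The lipids arrive by receptor-mediated uptake of lipoproteins, and the free cholesterol released leaves the lysosome through NPC2 and NPC1. LAL itself reaches the lysosome by the mannose-6-phosphate route, and the part that is secreted can be taken up by neighbouring cells. Without it, hepatocytes and macrophages of the liver fill with esterified lipid, the disorder known in patients as Wolman disease or cholesteryl ester storage disease.

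*Lipa* lies on the minus strand of mouse chromosome 19, at chr19:34469712-34522163 in GRCm39, and its canonical transcript in the GENCODE annotation has 10 exons and 2976 bases. Exon 4 (chr19:34488223-34488421) is coding throughout. Its 199 bases are 6.69% of that transcript and 16.7% of its 1191 coding bases. It is printed here 5′ to 3′ on the strand of the gene because it is the part removed in all *Lipa*-/- livers, with exon 4 in capitals and 20 intron bases in lower case on each side.
Lipa exon 4: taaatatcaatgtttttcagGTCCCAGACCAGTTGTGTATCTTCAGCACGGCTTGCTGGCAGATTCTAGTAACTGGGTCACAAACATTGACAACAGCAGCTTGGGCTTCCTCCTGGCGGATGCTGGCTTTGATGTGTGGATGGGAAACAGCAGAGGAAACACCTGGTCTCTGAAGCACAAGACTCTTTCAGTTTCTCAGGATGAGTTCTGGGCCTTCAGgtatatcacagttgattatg

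The length of exon 4 leaves a remainder of 1 when divided by 3. If exon 3 (chr19:34500822-34500939) is joined directly to exon 5 (chr19:34486389-34486498), the reading frame therefore shifts and meets a stop after 91 codons, 50 bases into exon 5. The 110 bases of exon 5 also hold a GXSXG motif, the pattern around the catalytic serine of lipases, which begins 32 bases after that stop. The sequence below holds the last 40 bases of exon 3 followed by the whole of exon 5, with the premature stop codon in capitals.
Lipa exon 3 joined to exon 5: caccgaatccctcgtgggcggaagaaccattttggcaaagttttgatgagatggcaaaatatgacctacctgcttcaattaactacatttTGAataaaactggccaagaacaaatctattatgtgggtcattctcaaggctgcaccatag

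These are reference sequences. The tables give 1 value per gene, so that reads inside and outside exon 4 cannot be told apart, and whether the *Lipa* reads that remained in *Lipa*-/- livers skip exon 4, or end in the lacZ cassette, was not tested. Both murine *Lipa* and hLIPA were quantified by assigning reads to transcripts, and reads that match both sequences could be split between them. In the 3 WT livers at 12 weeks, 13950 reads were assigned to *Lipa* and 0 to hLIPA.

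The libraries held 17527824 to 25833059 assigned reads. Levels are given as CPM, the reads of a gene relative to all reads of its library, scaled between libraries by trimmed mean of M-values (TMM), or as TPM, which also divide by transcript length and are used wherever the 2 genes are compared with each other. Fold changes were tested with edgeR's quasi-likelihood test over the 14533 genes with more than 100 reads in all, and a gene was called when its log2 fold change exceeded 1 in size at a Benjamini-Hochberg adjusted p under 0.05. The TMM factors differed between groups. They were 0.587 to 0.759 in the treated livers at 12 weeks, 1.17 to 1.23 and 1.37 to 1.69 in the untreated *Lipa*-/- livers at 12 and 34 weeks, and 0.806 to 1.07 in all others. For *Lipa*, hLIPA and the gene lists, values with total counts, without these factors, stand beside those with TMM where they differ in a call or count; single genes of the lists are given with TMM alone. With total counts, 27.9% and 32.6% of all genes were called higher and 4.11% and 7.24% lower in untreated *Lipa*-/- than in WT livers at 12 and 34 weeks, and in treated livers at 12 weeks 6.78% were called higher and 21.1% lower. As bulk liver was sequenced, fewer cells of a type and less RNA per cell cannot be told apart. All 8 hepatocyte markers, among them *Alb* and *Ttr*, passed the filter. The treated liver of mouse 12 at 34 weeks stood apart in neutrophil markers, with *S100a8* at 226 CPM, *S100a9* at 267 and *Ngp* at 133, where the other treated livers of that time were under 2 CPM in each. Counts in treated livers at 34 weeks were also made without it.

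The first question was how much *Lipa* RNA remained after deletion of exon 4. At 12 weeks, *Lipa* was at 202, 267 and 241 CPM in the WT livers of mice 1, 2 and 3. In untreated *Lipa*-/- livers it was at 33.4 CPM in mouse 8, 24.3 in mouse 9 and 16.7 in mouse 5. All 3 lay far below every WT liver, but differed by a factor of 2 among themselves, the lowest being the liver with its own study code. The mean fell from 236.6 ± 32.8 to 24.8 ± 8.33 CPM (SD, n = 3 each), to 10.5% ± 3.5 of the WT mean. The log2 fold change was -3.25 (SE 0.226, edgeR adjusted p = 3.62e-08), where 9.06% of all genes tested were called lower. The remaining share depended on the scale, as in TPM untreated *Lipa*-/- livers held 14.6% ± 4.8 of the WT mean.

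At 34 weeks, WT livers held 308, 283 and 323 CPM of *Lipa* in mice 1, 2 and 3. The untreated *Lipa*-/- livers of mice 4, 5 and 6 held 18.2, 19.7 and 18.965 CPM. The mutant livers were thus much closer to each other than at 12 weeks, with a mean of 18.9 ± 0.77 CPM, or 6.21% ± 0.25 of the WT mean of 304.9 ± 20.1. The log2 fold change was -4.01 (SE 0.233, edgeR adjusted p = 1.23e-08), and 15.7% of genes were called lower in the same comparison. In TPM the remaining share was 9.84% ± 1.21 of the WT mean. In reads, untreated *Lipa*-/- livers still had 471 to 859 assigned to *Lipa* at 12 weeks and 510 to 576 at 34 weeks, well above the floor of 3 reads that a count of 0 allows.

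The log2 fold change at 34 weeks differed from that at 12 weeks by -0.75 (SE 0.294), with an unadjusted p of 0.0202 from the edgeR interaction term. Adjusted over the 14533 genes the p was 0.401, and the difference between time points was therefore not established. Neither WT nor *Lipa*-/- livers showed a called change of *Lipa* with time. WT livers at 34 weeks were 0.37 higher on the log2 scale (SE 0.207, edgeR adjusted p = 0.774), and the value for *Lipa*-/- livers was -0.39 (SE 0.209, edgeR adjusted p = 0.385). On the TPM scale the latter was 0.09. Of all genes, 0.323% were called between times in WT livers and 0.495% in *Lipa*-/- livers.

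**Figure D1:**
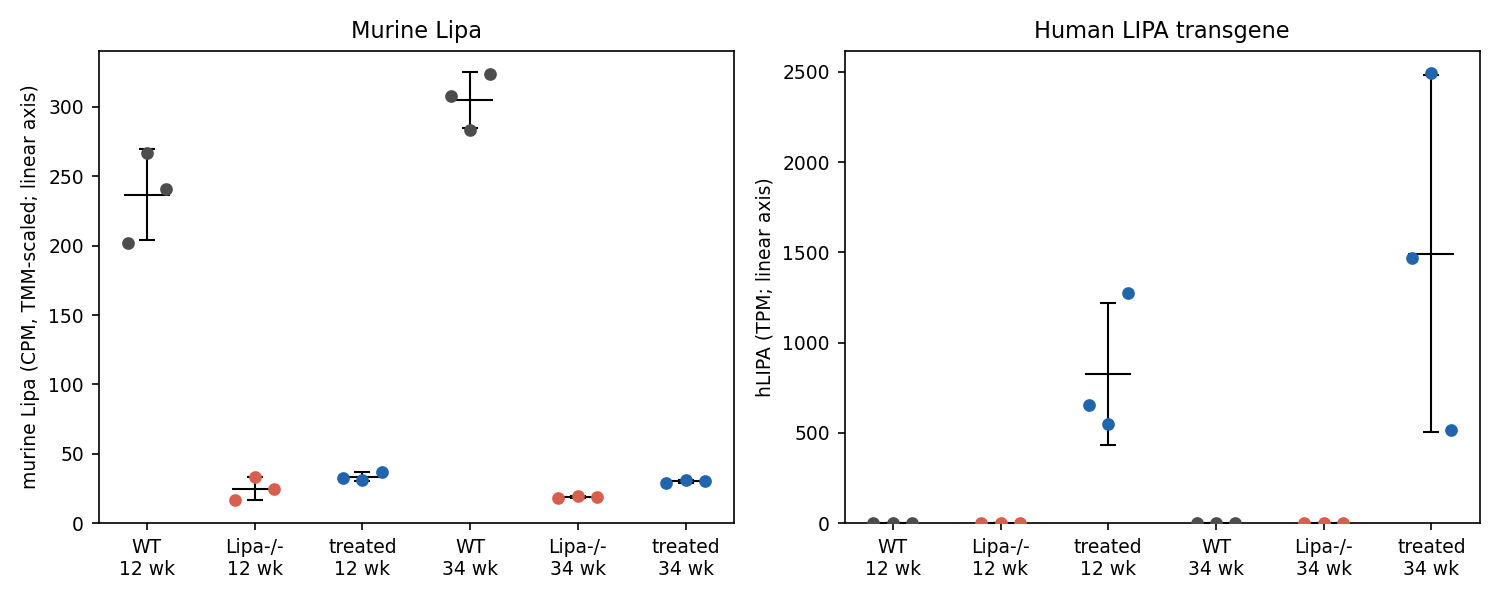
Murine *Lipa* in TMM-scaled CPM (left) and hLIPA in TPM (right) in each of the 18 livers, with bars for the mean ± SD of 3 mice on linear axes. *Lipa* was between 202 and 323 CPM in WT livers and between 16.7 and 37.0 in all others, while hLIPA ran from 519 to 2493 TPM in treated livers and was under 1 TPM in every other liver.

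Treated livers also kept a low level of murine *Lipa*. At 12 weeks the treated livers of mice 10, 11 and 12 had 32.6, 31.0 and 37.0 CPM, which overlapped with the range of untreated *Lipa*-/- livers. Against WT the log2 fold change was -2.82 (SE 0.222, edgeR adjusted p = 3.96e-06), with 12.0% of genes called lower. At 34 weeks the treated livers of mice 9, 11 and 12 had 29.1, 31.2 and 30.3 CPM, all above the 3 untreated livers. Against WT the log2 fold change was -3.33 (SE 0.226, edgeR adjusted p = 8.09e-07), and here only 0.0895% of genes were called lower, or 13 genes, *Lipa* being 1 of them. Without mouse 12 of the treated group 8 genes were called lower, and *Lipa* was at -3.34.

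Whether treatment changed the murine gene was tested against untreated *Lipa*-/- livers. At 34 weeks *Lipa* was 0.67 higher on the log2 scale (SE 0.209, edgeR adjusted p = 0.0161), below the fold required for a call, with means of 30.2 ± 1.05 and 18.9 ± 0.77 CPM. At 12 weeks it was 0.44 higher (SE 0.209, adjusted p = 0.0864). A call in either direction was made for 31.5% of genes in this comparison at 34 weeks and for 41.5% at 12 weeks. At 12 weeks the value ran from 0.22 without the untreated liver of mouse 5 to 0.71 without that of mouse 8. The effect of treatment did not differ detectably between time points, with a difference of 0.24 (SE 0.295, adjusted p = 0.604).

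These small differences between treated and untreated *Lipa*-/- livers depended on how libraries were scaled. At 12 weeks, *Lipa* in treated livers was at 6.64 ± 1.11 TPM against 10.8 ± 3.57 TPM in untreated *Lipa*-/- livers, and the log2 fold change turned to -0.65 on the TPM scale (limma adjusted p = 0.0338) and to -0.43 with total counts (edgeR adjusted p = 0.0808). At 34 weeks the TPM were 12.2 ± 0.97 and 11.1 ± 1.37. The log2 fold change then was 0.13 in TPM (limma adjusted p = 0.705) and 0.13 with total counts (edgeR adjusted p = 0.645). The median gene moved with the scaling too. In treated against untreated *Lipa*-/- livers at 12 weeks the middle of all tested genes stood at a log2 fold change of -0.19 with TMM factors, -1.05 with total counts and -1.11 in TPM. Relative to that median, *Lipa* was higher by 0.63 with TMM, by 0.62 with total counts and by 0.46 in TPM at 12 weeks, and by 0.64, 0.64 and 0.66 at 34 weeks. *Lipa* thus lay above the median gene on every scale, while the sign of its own fold change at 12 weeks was not the same on each.

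**Figure D2:**
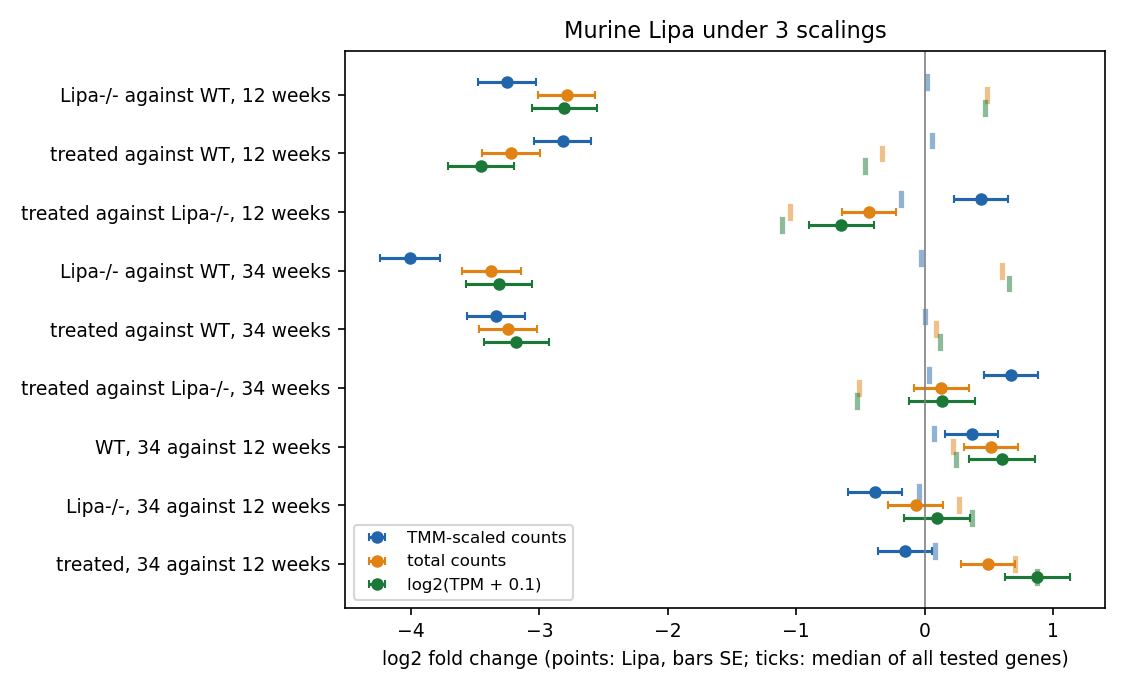
Log2 fold change of murine *Lipa* (points, with SE bars) in the 9 comparisons under 3 scalings, with the median of all tested genes as a tick of the same colour. The comparisons with WT sit between about -4.01 and -2.79 on every scale, whereas treated against untreated *Lipa*-/- livers at 12 weeks goes from 0.44 with TMM to -0.65 in TPM, each value lying above its own median.

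The mean effective length assigned to *Lipa* was 2736 ± 16 bases over the 6 WT livers and 2708 ± 29 bases over the 12 *Lipa*-/- livers (SD). The difference of 28.2 bases had an exact two-sided permutation p of 0.0443, which exceeded 0.05 when any of 12 of the 18 livers was left out. Treated and untreated *Lipa*-/- livers, at 2714 ± 23.1 and 2701 ± 34.9 bases (n = 6 each), overlapped, with an exact permutation p of 0.457. These are effective lengths, estimated in each library for annotated transcripts and weighted by abundance. That of hLIPA ran from 1063.3 to 1096.44 bases over the treated livers, a wider span than the difference tested. Such values are not measured transcript lengths, and they cannot show whether the remaining *Lipa* RNA lacks exon 4.

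hLIPA marked the treated livers. At 12 weeks the treated livers of mice 10, 11 and 12 held 657, 548 and 1275 TPM, from 16233, 16685 and 34317 reads. At 34 weeks those of mice 9, 11 and 12 held 1469.6, 2493 and 519 TPM, from 32368, 50262 and 13440 reads. All 6 untreated *Lipa*-/- livers and 4 of the 6 WT livers held 0 reads, so that the transgene was found in each liver labelled as treated.

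Over the untreated *Lipa*-/- livers, 0 of 122048107 reads came from hLIPA, which allows a share of up to 2.46e-06% by counting error alone. Set against a floor of 3 reads in the shallowest untreated library on the CPM scale, the treated mean was at least 14100-fold higher at 12 weeks and at least 13200-fold higher at 34 weeks. The edgeR adjusted p for treated against untreated *Lipa*-/- livers was 1.50e-05 at 12 weeks and 1.17e-05 at 34 weeks, with 16.2% and 12.8% of genes called higher. Against WT, hLIPA was called higher as well, at adjusted p of 6.3e-04 and 2.9e-03, where 13.6% and 0.131% of genes were called higher.

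2 WT livers at 34 weeks were not at 0. That of mouse 1 had 1 hLIPA read and that of mouse 2 had 23 reads, whereas that of mouse 3 had none. The 23 reads were 0.967 CPM before TMM scaling (95% exact binomial interval 0.613 to 1.45) and 0.0239% of the hLIPA reads of the 3 treated livers of that time point. The interval covers counting error only, and the source of these reads was not tested. With the 6 treated and untreated *Lipa*-/- livers of 34 weeks alone in the fit, the edgeR adjusted p of hLIPA was 2.40e-04.

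Transgene RNA was abundant next to the gene it replaces. In TPM, hLIPA in treated livers was on average 11.2 ± 5.31 times the mean WT level of murine *Lipa* at 12 weeks, with 7.44 for mouse 11, 8.92 for mouse 10 and 17.3 for mouse 12. At 34 weeks it was 13.2 ± 8.73 times that level, with 4.59 for mouse 12, 13.0 for mouse 9 and 22.1 for mouse 11. Even the lowest treated liver exceeded the highest WT liver of its time point, by 6.39 times at 12 weeks and 3.89 times at 34 weeks. In CPM, where length is not taken into account and the murine transcript is 2.51 times longer, the ratios of the means were 7.21 and 5.01.

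Within the treated livers, hLIPA made up 97.7% to 99.6% of the summed *Lipa* and hLIPA TPM. It ranked between 58 and 269 among all genes by TPM, whereas murine *Lipa* ranked between 869 and 1305 in WT livers and between 4212 and 6359 in *Lipa*-/- livers, treated or not. The most abundant hepatocyte messages were far higher. *Alb*, which encodes serum albumin, was at a mean of 14494 ± 8037 TPM in treated livers at 12 weeks and 23735 ± 6054 TPM at 34 weeks, against 827 ± 392 and 1494 ± 987 TPM for hLIPA.

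Treated livers differed more from each other in hLIPA than in murine *Lipa*. The highest hLIPA level in TPM was 2.32 times the lowest at 12 weeks and 4.81 times at 34 weeks, with coefficients of variation of 47.4% and 66.1%. Those of murine *Lipa* in the same livers were 16.7% and 8% in TPM, and 9.25% and 3.48% in CPM. The 2 time points did not differ detectably. The log2 fold change of hLIPA from 12 to 34 weeks was -0.16 (SE 0.753, edgeR adjusted p = 0.882), which turned to 0.68 in TPM (limma adjusted p = 0.404) and to 0.49 with total counts, and to 0.29 or 0.33 when mouse 12 of the 34- or of the 12-week group was left out. In the same comparison 32.0% of all genes were called. Murine *Lipa* did not change by this test in treated livers either, at -0.15 (SE 0.209, edgeR adjusted p = 0.575), although the value was 0.88 in TPM (limma adjusted p = 0.00839) beside a median of 0.87 for all genes.

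Reads of murine *Lipa* were also set beside those of hLIPA. The liver with 50262 hLIPA reads had 571 *Lipa* reads, and that with 13440 hLIPA reads had 780. *Lipa* reads per 100 hLIPA reads ran from 1.14 to 5.8 over the 6 treated livers.

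How the transgene related to the state of each treated liver was asked with a score over all tested genes other than *Lipa* and hLIPA. The score is the position of a liver along the straight line from the WT mean (0%) to the untreated *Lipa*-/- mean (100%) of its own time point, in log2 CPM. WT and untreated *Lipa*-/- livers were scored against means that left them out, and treated livers took no part in setting the line.

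On this line the treated livers lay nearer to WT than to untreated *Lipa*-/- livers. Changes off the line do not enter the score. At 12 weeks 13.6% of all genes were called higher and 12.0% lower in treated than in WT livers, so that a low score is not likeness to WT in every gene. The scores of the treated livers at 12 weeks were 27.8% for mouse 10, 33.6% for mouse 11 and 15.2% for mouse 12. WT livers spanned -1.84% to 10.1% and untreated *Lipa*-/- livers 86.4% to 104%, so that no group overlapped with another. The mean of 25.5% ± 9.4 differed from both with an exact two-sided permutation p of 0.1, the smallest that 3 livers against 3 allow. At 34 weeks the treated livers were at 15.8% for mouse 9, 5.59% for mouse 11 and 22.0% for mouse 12. These overlapped with WT livers, at -4.59% to 15.6% (exact p = 0.2), and not with untreated *Lipa*-/- livers, at 87.5% to 105% (exact p = 0.1). The treated mean was 14.4% ± 8.27, and the 2 times overlapped (exact p = 0.3). Without mouse 12, the liver with high neutrophil markers, the 34-week mean was 10.7% (n = 2). With total counts or TPM in place of TMM-scaled CPM the 12-week mean was 13.2% or 10.9%, so that the gap between times was not stable.

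Within each time point the livers with more hLIPA had the lower score. At 12 weeks the order was 907 CPM with 33.6%, 1577 CPM with 27.8% and 2631 CPM with 15.2%. At 34 weeks it was 523 CPM with 22.0%, 1316 CPM with 15.8% and 2746 CPM with 5.59%. The liver with the least hLIPA and the highest score at 34 weeks was that of mouse 12, so that without it the order at that time rests on 2 livers. The orders were opposite at both times, and stayed so under each of the 4 other ways of scoring: over called genes alone, in TPM, with a prior count of 0.5 and with total counts.

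The number of livers limits what can be made of this. Over all 6 treated livers Pearson's r between log2 CPM of hLIPA and the score was -0.611 (exact permutation p = 0.183) and Spearman's rho -0.714 (exact permutation p = 0.136), or 0.649 and 0.438 after Benjamini-Hochberg adjustment over 5 relations. Without the livers of mice 11 and 12 at 34 weeks, which were farthest from the median hLIPA, r was -0.706. With the mean of each time point removed, r was -0.939, with an exact p of 0.0556 from permutations within time points, whose smallest possible value is 0.0278. After adjustment over the 5 relations the latter p was 0.278. With hLIPA in TPM and the score in CPM, r was -0.908 (exact permutation p = 0.0194, adjusted p = 0.0972). No adjusted p thus passed the threshold. Both measures share the same TMM factor per library. Taking both with total counts instead, r was -0.846 (exact permutation p = 0.0444, not adjusted), and with both in TPM it was -0.638 (exact permutation p = 0.132).

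**Figure D3:**
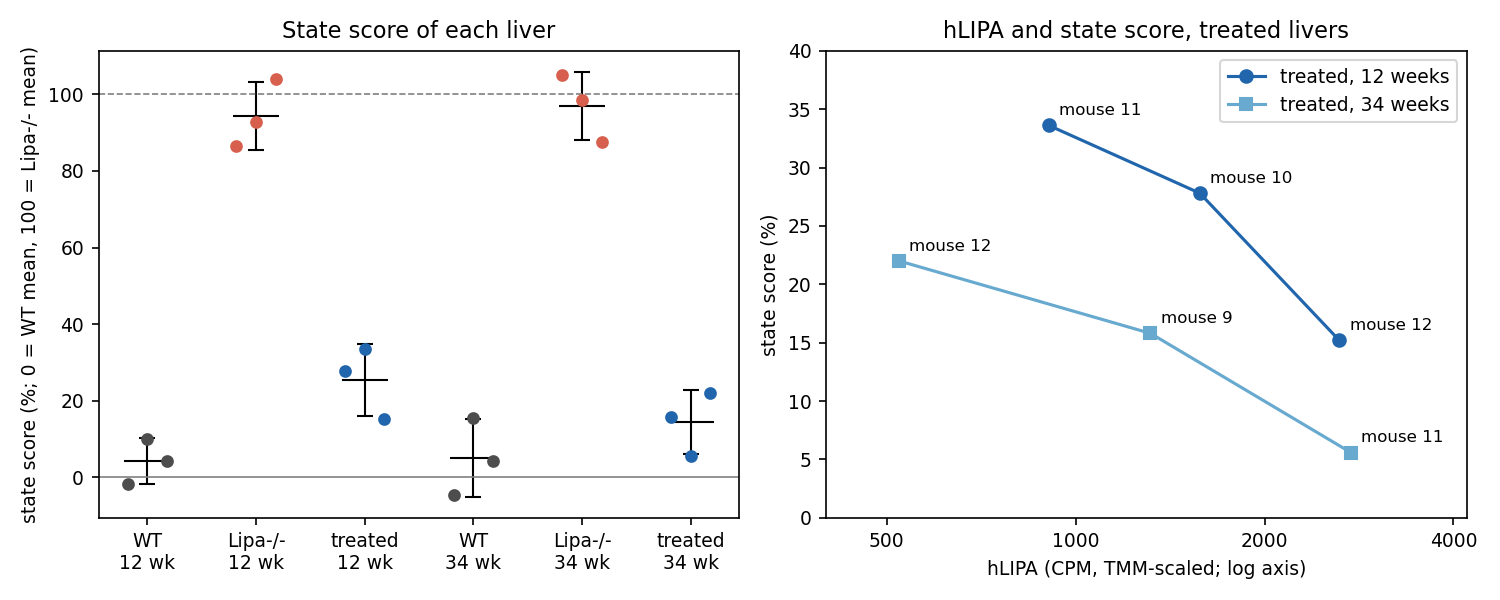
Left, state score of each of the 18 livers in percent, where 0 is the WT mean and 100 the untreated *Lipa*-/- mean of the same time point, with mean ± SD of 3 mice. Right, state score against hLIPA in CPM (log axis) in the 6 treated livers, joined within a time point; the score was 33.6% in the liver with least hLIPA and 15.2% in that with most at 12 weeks, and 22.0% and 5.59% at 34 weeks.

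None of the 4 other relations passed the threshold either. The lipid-laden macrophage marker score, the mean log2 CPM of 12 genes such as *Gpnmb* and *Trem2*, gave r = -0.0802 with hLIPA (rho -0.143, exact permutation p = 0.872 and 0.803). The cholesterol synthesis score gave r = -0.406 (rho -0.314, exact permutation p = 0.44 and 0.564), murine *Lipa* r = 0.558 (rho 0.657, exact permutation p = 0.26 and 0.175), and the mean length of *Lipa* r = 0.322 (rho 0.486, exact permutation p = 0.561 and 0.356). The adjusted p of these 4 ran from 0.438 to 0.872. Without the 2 livers named above, r was -0.444, -0.0439, 0.82 and 0.286 in the same order.

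The macrophage markers themselves separated the groups. Their mean log2 CPM was 1.82 ± 0.315 in WT, 8.61 ± 0.284 in untreated *Lipa*-/- and 5.24 ± 0.566 in treated livers at 12 weeks, with no overlap (exact p = 0.1 for each pair with the treated group). At 34 weeks it was 2.17 ± 0.0993, 8.68 ± 0.145 and 4.07 ± 0.249. By gene, 12 of the 12 markers were called higher in untreated *Lipa*-/- than in WT livers at each time, where 20.2% of all genes at 12 weeks and 20.5% at 34 weeks were called higher. Against WT, treated livers still had 11 of the 12 called higher at 12 weeks, or 10 with total counts, and 5 of the 12 at 34 weeks, or 3 without mouse 12. In the same comparisons 13.6% and 0.131% of all genes were called higher. *Gpnmb*, which encodes a lysosomal membrane glycoprotein of macrophages, was at 106 CPM in treated livers at 12 weeks and 56.9 at 34 weeks, against 2012 and 2246 CPM in untreated *Lipa*-/- livers. WT livers were at 0.22 and 0.43 CPM, so that treated livers remained far above WT in this gene. In the treated livers at 34 weeks *Gpnmb* was not in the order of hLIPA, being at 7.94 CPM in mouse 12, 121 in mouse 9 and 42.1 in mouse 11, from the least to the most hLIPA. These macrophages are not the cells in which the hAAT promoter is active, and hLIPA reads were not assigned to cell types.

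Markers of other cells were read in the same way. Of 8 hepatocyte markers, 4 were called lower in untreated *Lipa*-/- than in WT livers at 12 weeks and 6 at 34 weeks, where 9.06% and 15.7% of all genes were called lower. With total counts these numbers were 1 and 3. In treated livers 1 was called lower and 1 higher at 12 weeks, the latter not with total counts, and none either way at 34 weeks. Of 6 stellate cell and fibroblast markers, 4 were called higher and 1 lower in untreated *Lipa*-/- livers at 12 weeks, and 5 and 1 at 34 weeks. Of all genes, 20.2% and 20.5% were called higher there. In treated livers 4 of these markers were higher than in WT at 12 weeks and 0 at 34 weeks, where 13.6% and 0.131% of all genes were called higher. *Col1a1* (type I collagen) was 2.83 higher on the log2 scale in treated than in WT livers at 12 weeks. The size of this value leaned on mouse 10, at 55.8 CPM, beside 11.2 in mouse 11 and 11.0 in mouse 12. WT livers of that time were at 2.36, 4.45 and 4.03 CPM. Of 6 Kupffer cell markers, 1 was called higher in treated than in WT livers at 12 weeks and 0 at 34 weeks. Of 7 T and B cell markers, 3 and 1 were higher, of 6 neutrophil markers 1 and 0, and of 5 sinusoidal endothelium markers 1 and 0 with 1 lower at 12 weeks. None of 4 cholangiocyte markers was called in treated livers at either time. The shares of all genes called lower in treated livers were 12.0% at 12 weeks and 0.0895% at 34 weeks. Single calls at 12 weeks and lists without a call at 34 weeks are thus near the background. With total counts the 12-week numbers higher in treated livers were 0 for Kupffer cell, 2 for T and B cell and 0 for neutrophil markers, and at 34 weeks 0 for T and B cell markers. In untreated *Lipa*-/- livers 6 neutrophil markers were called higher at 12 weeks and 5 at 34 weeks, or 6 with total counts. Of the cholangiocyte markers 2 and 4 were higher there, and none of either list was lower. The median log2 fold change of the neutrophil markers in treated against WT livers at 34 weeks was 7.64, and -0.40 without mouse 12. The part of cell composition in the level of *Lipa* or hLIPA was not tested.

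Most of the lysosomal enzymes around LAL were called higher in untreated *Lipa*-/- livers, and few or none in treated livers, where *Lipa* was low too. Of 26 other lysosomal hydrolases, 17 were called higher in untreated *Lipa*-/- than in WT livers at 12 weeks and 14 at 34 weeks, and none lower, where 20.2% and 20.5% of all genes were called higher. Their median log2 fold change was 1.20 and 1.05, beside 0.02 and -0.03 over all genes. *Hexa*, an enzyme of ganglioside breakdown, was 3.12 higher on the log2 scale at 12 weeks, and *Ctsd*, the aspartic protease cathepsin D, went from 342 to 3063 CPM. *Smpd1*, acid sphingomyelinase, was not called, at -0.19 and -0.43. With total counts the numbers higher were 19 and 20, where 27.9% and 32.6% of all genes were called higher.

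In treated livers 5 of the 26 were called higher than in WT and 4 lower at 12 weeks, where 13.6% and 12.0% of all genes were called, or 1 higher and 4 lower with total counts. At 34 weeks none was called either way, with and without mouse 12, and the median was -0.01. As 0.131% of all genes were called higher and 0.0895% lower then, none of 26 is near the background. *Hexa* and *Ctsd* were still 1.24 and 1.18 higher at 12 weeks. At 34 weeks *Lipa* was therefore the sole one of the 27 enzymes called between treated and WT livers. Between treated and untreated *Lipa*-/- livers, 19 of the 26 were called lower at 12 weeks and 11 at 34 weeks, where 25.3% and 18.6% of all genes were called lower. With total counts these numbers were 25 and 21, where 47.7% and 28% of all genes were called lower.

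**Figure D4:**
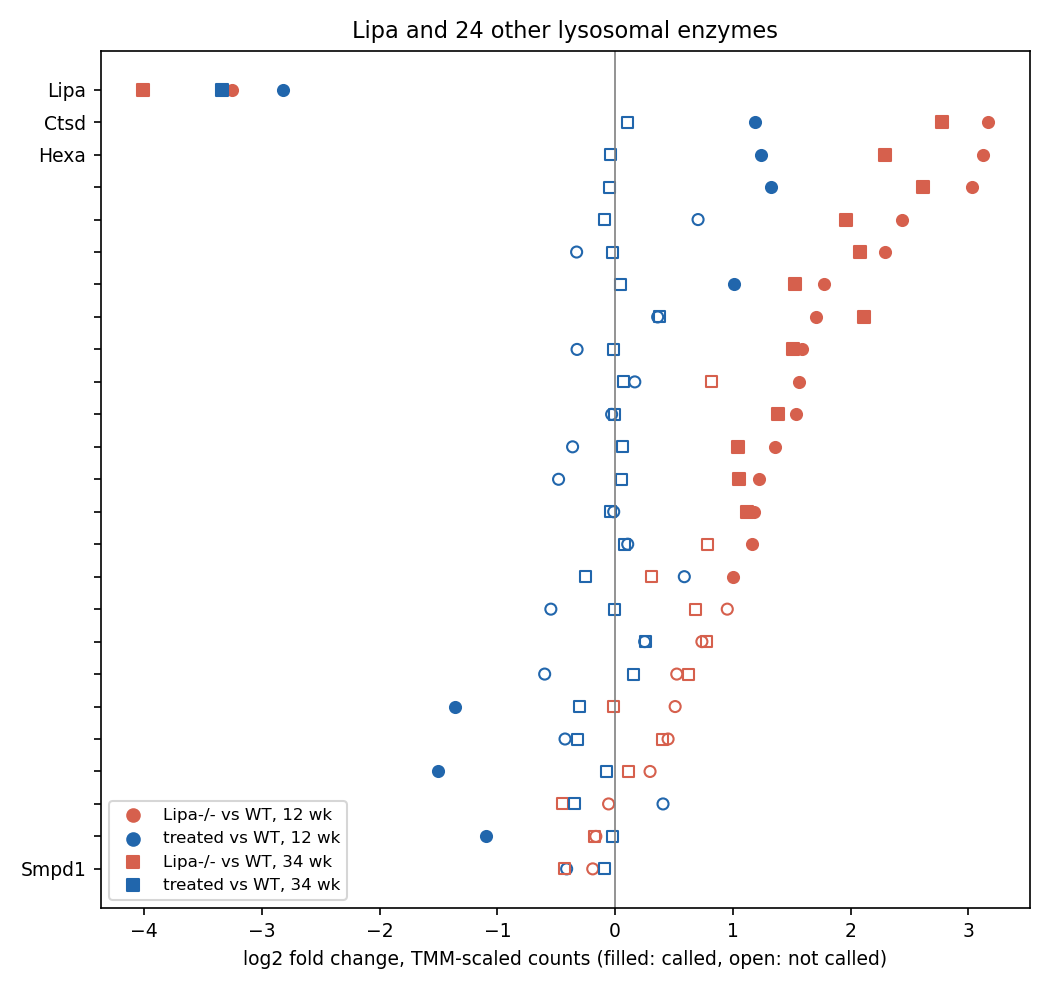
Log2 fold changes against WT of *Lipa* and 24 of the 26 other lysosomal hydrolases, for untreated *Lipa*-/- (red) and treated (blue) livers at 12 weeks (circles) and 34 weeks (squares); filled symbols are called, and the enzymes named in the text are labelled. *Lipa* lies between -4.01 and -2.82 in all 4 comparisons, while none of the other enzymes shown is called at 34 weeks in treated livers.

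Genes on the route of LAL and of its products were read by role. For delivery of the enzyme, *Gnptab*, a subunit of the phosphotransferase that builds the mannose-6-phosphate tag, was 1.16 and 1.53 higher in untreated *Lipa*-/- than in WT livers at 12 and 34 weeks. *Igf2r*, the cation-independent mannose-6-phosphate receptor, was called higher at 34 weeks alone, by 1.12. The other receptor, *M6pr*, was not called in any comparison with WT, its values lying between -0.18 and 0.72. For uptake of lipoproteins, *Lrp1*, an endocytic receptor that takes up lipoprotein remnants, was not called in any of the 4 comparisons with WT.

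For the products, *Npc2*, which carries cholesterol out of the lysosome, was 2.19 higher in untreated *Lipa*-/- livers at 12 weeks and 1.73 at 34 weeks, and 1.22 higher in treated livers at 12 weeks. *Npc1* was not called. *Soat1*, which re-esterifies cholesterol and is prominent in macrophages, rose by 5.09 and 4.51 on the log2 scale in untreated *Lipa*-/- livers and was 1.93 higher in treated livers at 12 weeks. *Abcg1*, a cholesterol exporter, rose by 3.95 and 3.40, and in treated livers was not called, at 0.53 and 0.58. *Nceh1* and *Pnpla2* act on neutral lipid outside the lysosome. The first was called higher in untreated *Lipa*-/- livers at 12 weeks, by 1.31. At 34 weeks it missed the call, with 54.7, 47.4 and 40.1 CPM in untreated *Lipa*-/- livers and 19.9, 21.7 and 33.3 in WT livers. *Pnpla2* was called lower in treated livers at 12 weeks, at -1.22.

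Of the 24 genes of this route, 6 were called higher and 0 lower in untreated *Lipa*-/- livers at 12 weeks, and 7 and 4 at 34 weeks. Of all genes, 20.2% and 20.5% were called higher and 9.06% and 15.7% lower. With total counts 11 of the 24 were higher and 0 lower at 12 weeks, and 11 and 1 at 34 weeks. In treated livers 3 were higher and 3 lower at 12 weeks, or 1 and 7 with total counts, and 0 of 24 was called at 34 weeks, with and without mouse 12. The shares of all genes called were 13.6% higher and 12.0% lower at 12 weeks and 0.131% and 0.0895% at 34 weeks.

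Cholesterol synthesis genes did not move as a block in untreated *Lipa*-/- livers, where 3 of 23 were called lower at 12 weeks and 5 at 34 weeks, and none higher. Of all genes, 9.06% and 15.7% were called lower. With total counts the numbers were 0 lower and 1 higher at 12 weeks and 2 lower and 1 higher at 34 weeks, so that no direction holds across scalings. In treated livers 7 were called lower than in WT at 12 weeks, or 15 with total counts, where 12.0% and 21.1% of all genes were called lower, among them *Srebf2*, which encodes the transcription factor of the pathway, at -1.23. At 34 weeks none of the 23 was called in treated against WT livers. Of all genes, 0.131% were called higher and 0.0895% lower then, so that this is near the background.

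The mouse relatives of the human gene whose promoter drives hLIPA, *Serpina1a* to *Serpina1e*, were compared because they are endogenous hepatocyte genes. Of these 5 near-identical genes, between which reads may be split, 4 were called lower in untreated *Lipa*-/- than in WT livers at 12 weeks and 3 lower and 1 higher at 34 weeks, or 3 lower at 12 weeks and 2 lower and 1 higher at 34 weeks with total counts. Of all genes, 9.06% were called lower at 12 weeks, and 15.7% lower and 20.5% higher at 34 weeks. In treated livers none was called against WT at 12 weeks and 1 at 34 weeks, *Serpina1e*, at 3.85. Of all genes, 13.6% were called higher and 12.0% lower in treated livers at 12 weeks, and 0.131% and 0.0895% at 34 weeks. *Serpina1e* was at 337 CPM in WT livers at 34 weeks and at 6877 at 12 weeks.

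The genes around *Lipa* on chromosome 19 were read for a change shared by the locus. Of 46 annotated neighbours within 500 kb, 24 were in the table and 13 passed the filter. In untreated *Lipa*-/- livers 5 were called higher and 1 lower at 12 weeks, and 6 higher and 1 lower at 34 weeks. Of all genes, 20.2% and 20.5% were called higher and 9.06% and 15.7% lower. *Pank1*, a pantothenate kinase of coenzyme A synthesis, was the gene called lower, at -1.48 and -2.62, and *Ch25h*, cholesterol 25-hydroxylase, was among those called higher, at 2.56 and 3.83. In treated livers 4 were called higher and 0 lower at 12 weeks, or 2 and 0 with total counts, beside 13.6% of all genes called higher. At 34 weeks none of the 13 was called, where 0.131% of all genes were called higher and 0.0895% lower, so that this is near the background.

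The genes whose level across the 18 livers was most like that of *Lipa*, by Pearson's r of log2 CPM across 12598 genes averaging 1 CPM or more, were *Cyp2b10* (0.883), *Zfp367* (0.837), *F8* (0.82), *Ubxn2a* (0.812) and *Mmgt1* (0.811). Each had a higher mean in WT than in untreated *Lipa*-/- livers at both times, and the 18 points fall in the same 6 groups for every gene. A lower level in *Lipa*-/- livers follows from this choice and was not tested. *F8*, which encodes coagulation factor VIII, was at log2 fold changes of -1.54 and -1.74 in untreated *Lipa*-/- against WT livers. For *Cyp2b10*, a xenobiotic-metabolizing cytochrome P450, WT livers held 1.18 to 6.23 CPM and 7 of the 12 *Lipa*-/- livers were at 0.

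The genes most like hLIPA were *Arvcf* (0.814), *Cxcl9* (0.809), *Gvin1* (0.773), *Ifi213* (0.767) and *Bglap3* (0.75). *Cxcl9*, a chemokine induced by interferon gamma, was at 27.1, 45.7 and 18.4 CPM in treated livers of mice 10, 11 and 12 at 12 weeks and at 15.7, 23.1 and 14.9 CPM in those of mice 9, 11 and 12 at 34 weeks. It was at 2.55 to 13.6 CPM in all other livers, a separation that the choice of genes like hLIPA favours. Its log2 fold change in treated against untreated *Lipa*-/- livers was 1.68 and 2.06 at 12 and 34 weeks. Within treated livers its order was opposite to that of hLIPA at 12 weeks and the same at 34 weeks. *Gvin1* and *Ifi213*, both of interferon-inducible families, were at log2 fold changes of 1.898 and 2.66 in treated against WT livers at 12 weeks and of 2.10 and 0.71 at 34 weeks. Higher levels in treated livers are favoured by the choice for these genes as well. *Gvin1* at 34 weeks was highest in the treated liver of mouse 12, at 77.5 CPM, beside 37.9 in mouse 9 and 19.1 in mouse 11.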

How the data were processed

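Liver RNA with poly(A) selection was sequenced in 18 mice (6 groups of 3). Per the methods and the labels, the authors assigned paired reads to the mouse transcriptome of GRCm39 with Salmon and summed transcripts to genes with tximport. How the hLIPA sequence was added is not given in the sources used here. The authors deposited estimated counts per gene, TPM and mean transcript lengths, which were used here. A further deposited table, with the authors' fold changes and p-values, was not used. Estimated counts were rounded to whole numbers (19.4% of values were not whole). Genes with more than 100 reads over all livers were kept, following the study, and tested with edgeR 4.0.16 (R 4.3.3) on 6 group means with TMM factors, with |log2 fold change| > 1 and adjusted p under 0.05 as the call. The study used DESeq2 (version 1.40.1 per the labels) with length offsets, which was run here as an alternative with DESeq2 1.42.0. limma 3.58.1 was used on log2(TPM + 0.1). Log2 CPM used a prior count of 2. The hLIPA length in livers with no reads is a filled-in value and was not interpreted.

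Libraries held 17527824 to 25833059 reads, and intervals and floors (3 reads) cover counting error only. The labels call the samples separate mice. Mouse numbers recur between time points for different mice, so they do not pair samples. Genes named are *Lipa*, hLIPA, members of the gene lists used in the text, tested genes within 500 kb of *Lipa*, and the 5 genes most like each member. The members and lists were chosen with earlier results of these data known. Gene positions and sequences come from the GENCODE annotation and the GRCm39 genome. The edgeR fit, the state score and the exact test were tested on simulated data. Alternatives tried were DESeq2, length offsets, upper quartile scaling, total counts, 2 other filters, fits of 2 groups alone, limma on TPM, a replicate block and each mouse left out. Some members of the lists entered the counts but are not reported here by name.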

Additional observations from a re-analysis of the deposited data

How the results depend on the processing

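The 2 losses of *Lipa* in untreated and the 2 in treated *Lipa*-/- livers against WT, and the 2 hLIPA calls, kept their call in every alternative run. Those that changed were all small differences. With total counts, the log2 fold change of *Lipa* in treated against untreated *Lipa*-/- livers at 12 weeks was -0.43, that of *Lipa* in treated livers from 12 to 34 weeks 0.49 and that of hLIPA 0.49. In TPM these were -0.65, 0.88 and 0.68, and that of *Lipa* in untreated *Lipa*-/- livers from 12 to 34 weeks was 0.093. The scaling itself moved the median gene in the same comparisons. Leaving out 1 mouse at a time gave hLIPA from 12 to 34 weeks at -0.89 to 0.33, and the length difference of *Lipa* between WT and *Lipa*-/- livers at 24.03 to 34.21 bases, whose exact p exceeded 0.05 when any of 12 livers was left out; the cause of these changes was not tested. The 12-week state score of treated livers was 10.95% in TPM and 13.18% with total counts. With hLIPA in TPM, its r with the cholesterol synthesis score was 0.155 in place of -0.406. At 34 weeks, the adjusted p of *Lipa* in treated against untreated *Lipa*-/- livers ran from 0.009 to 0.705 over 14 alternatives, under 0.05 in 11. With the mouse number as a replicate block, *Lipa* from 12 to 34 weeks was 0.37 in WT, 0.24 in untreated *Lipa*-/- (the sign turned) and -0.14 in treated livers, and hLIPA -0.37, none called. Deviations of same-numbered mice correlated at -0.253 to 0.46, and the numbers name different mice. The state relation with both measures rescored, and the fit without the treated 34-week liver of mouse 12 for all lists, were added after seeing the data. With 3 mice a group and 6 treated livers, exact tests of 3 against 3 cannot pass the threshold of 0.05, and a relation with hLIPA could be detected only if it was close to a straight line.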

Other observations

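The deposited lengths cannot tell whether the *Lipa* reads of *Lipa*-/- livers come from transcript without exon 4. The mean lengths are effective lengths of the annotated transcripts, estimated in each library and weighted by abundance. The 12 *Lipa*-/- livers, at 2662 to 2755 bases, overlapped with the 6 WT livers, at 2706 to 2751 bases. hLIPA had a mean effective length of 1074.5 bases at 12 weeks and 1090.3 at 34 weeks in treated livers, which was not read as a change of the transcript.

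The hepatocyte marker score, the mean log2 CPM of 8 markers, did not separate treated from WT livers, at 12.4 ± 0.326 against 12.4 ± 0.162 at 12 weeks (exact permutation p = 0.8) and 12.1 ± 0.155 against 12.1 ± 0.266 at 34 weeks (exact permutation p = 0.9). With TMM, untreated *Lipa*-/- livers were lower, at 11.5 ± 0.104 and 10.6 ± 0.327, and did not overlap with treated livers (exact permutation p = 0.1 each, the smallest possible). The median log2 fold change of the 8 markers in treated against untreated *Lipa*-/- livers at 12 weeks was 0.81 with TMM. With total counts it was -0.04, so that this difference depended on the scaling. Over all genes these medians were -0.19 and -1.05. At 34 weeks the markers were at 1.44 with TMM and 0.91 with total counts.

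Of the 6 secreted hepatocyte proteins read for scale, none was called in treated against WT livers at either time. Of all genes, 13.6% were called higher and 12.0% lower in that comparison at 12 weeks, and 0.131% and 0.0895% at 34 weeks. In untreated *Lipa*-/- livers 1 of the 6 was called lower at 12 weeks and 3 at 34 weeks, where 9.06% and 15.7% of all genes were called lower. With total counts 1 was higher and 0 lower at 12 weeks, and 1 higher and 2 lower at 34 weeks, so that no direction holds across scalings. *Apoa2*, an apolipoprotein of HDL, was at 8485 CPM in WT, 1754 in untreated *Lipa*-/- and 7128 in treated livers at 34 weeks.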
